A study of Mus musculus with 23 samples.

Results

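Tmem254a, Tmem254b, Tmem254c, Plac9a, Plac9b, Tmem181a, Tmem181b-ps and Tmem181c-ps are 8 copies of 3 mouse genes that lie in repeated stretches of chromosomes 14 and 17. They were taken by symbol from the 39017 genes in both deposited tables and were chosen by their RPKM, which differs between the genotype labels of the series. Their genotype difference is therefore described below without a test.

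The series measured poly(A) RNA of the mouse hippocampus in 23 libraries. The 4 groups compared hold 5 libraries each: control and CSDS libraries of WT (wild-type) mice, and the same of mice labelled knockout. The label gives a knockout of Nrsn2, a gene for a neuronal membrane protein. CSDS, chronic social defeat stress, is a daily encounter with an unfamiliar aggressive CD-1 mouse followed by housing beside it behind a perforated divider. In the CSDS groups it lasted 10 days, with 5 min of defeat a day. No group carries another agent, and the labels read here name no strain, age, sex or allele. A further 3 libraries (WT 9B, knockout-labelled 11 and knockout-labelled 10B) are titled control but have CSDS in the treatment field. Their values are shown and they enter no group. The labels number the libraries within a group and say no more on whether each is its own animal, so a p-value here reflects only the spread among the libraries, which may be technical.

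Tmem254 encodes a small multi-pass membrane protein whose function is not well known. Plac9 encodes a small secreted protein first described in placenta. Tmem181 encodes a multi-pass membrane protein related to G protein-coupled receptors, which is required in cultured cells for poisoning by a cytolethal distending toxin of Escherichia coli. Segmental duplication puts near-identical copies of a gene side by side. The number of such copies can differ between inbred mouse lines, and a short read from one copy can align equally well to another.

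The 5 copies on chromosome 14 span 320 kb and all lie on the minus strand in mm10. Plac9a (ENSMUSG00000095304) is at chr14:25887506-25903100 and Tmem254a (ENSMUSG00000072676) at chr14:25923300-25927672. Tmem254c (ENSMUSG00000072680) is at chr14:26063919-26067355, Plac9b (ENSMUSG00000072674) at chr14:26167405-26182480 and Tmem254b (ENSMUSG00000021867) at chr14:26203369-26207041. A Plac9 copy precedes each Tmem254 copy. The gap is 20.2 kb between Plac9a and Tmem254a and 20.9 kb between Plac9b and Tmem254b. Tmem254c follows a further Plac9-like copy, Gm9780 (chr14:26027282-26042711), at a distance of 21.2 kb.

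The Tmem181 copies span 383 kb of chromosome 17. Tmem181a (ENSMUSG00000038141, plus strand) is the protein-coding copy and lies at chr17:6256860-6308314. Tmem181b-ps (ENSMUSG00000096780) at chr17:6438524-6467022 and Tmem181c-ps (ENSMUSG00000093880) at chr17:6613753-6639790 are unprocessed pseudogenes on the minus strand. Each lies beside a copy of Dynlt1, which encodes a light chain of cytoplasmic dynein. Dynlt1a overlaps Tmem181a by 1975 bases, Dynlt1b ends 2.23 kb before Tmem181b-ps and Dynlt1c ends 3.98 kb before Tmem181c-ps. The library kit keeps no strand, so reads in that overlap cannot be told apart.

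Stretches of 75 bases, the length of 1 read, are shown as examples. For Tmem254 and Plac9 the first coding stretch found unchanged in every copy was taken, so its identity was set by the choice. The first set is the start of the Tmem254 coding sequence, in the exon that holds the start codon, at chr14:25927075-25927149 for Tmem254a, chr14:26206444-26206518 for Tmem254b and chr14:26066828-26066902 for Tmem254c (mm10, minus strand). All 3 are identical, so there are no capitals.
Tmem254a: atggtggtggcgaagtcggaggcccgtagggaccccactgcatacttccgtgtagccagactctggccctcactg
Tmem254b: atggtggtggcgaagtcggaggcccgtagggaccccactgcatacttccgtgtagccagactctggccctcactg
Tmem254c: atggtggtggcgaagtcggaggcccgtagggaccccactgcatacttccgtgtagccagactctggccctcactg

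The start of the Plac9 coding sequence is likewise identical in Plac9a at chr14:25902808-25902882, Plac9b at chr14:26182188-26182262 and Gm9780 at chr14:26042574-26042648 (mm10, minus strand).
Plac9a: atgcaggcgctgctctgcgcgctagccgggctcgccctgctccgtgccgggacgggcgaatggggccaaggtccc
Plac9b: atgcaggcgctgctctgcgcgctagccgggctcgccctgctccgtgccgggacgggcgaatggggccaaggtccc
Gm9780: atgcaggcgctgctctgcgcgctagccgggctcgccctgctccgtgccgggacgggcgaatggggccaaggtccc

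For Tmem181 a stretch was taken in which every copy differs from the others, with the fewest mismatches. It therefore does not measure how alike these copies are, for which the shares over whole transcripts are given below. A coding stretch of Tmem181a at chr17:6280599-6280673 (mm10, plus strand) is set against its counterparts in Tmem181b-ps at chr17:6466947-6467021 and Tmem181c-ps at chr17:6639715-6639789 (both minus strand), with the 2 positions that differ within the set in capitals. Tmem181b-ps has 2 mismatches to Tmem181a there and Tmem181c-ps has 1.
Tmem181a: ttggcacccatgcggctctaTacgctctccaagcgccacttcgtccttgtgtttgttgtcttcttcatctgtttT
Tmem181b-ps: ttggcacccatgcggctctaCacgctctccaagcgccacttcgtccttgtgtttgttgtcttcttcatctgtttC
Tmem181c-ps: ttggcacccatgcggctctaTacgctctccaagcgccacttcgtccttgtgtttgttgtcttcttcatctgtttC

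Over whole annotated transcripts (GENCODE), every 75-base stretch of Tmem254b (1931 of 1931) and of Tmem254c (1505 of 1505) also occurs in another Tmem254 copy. In Tmem254a, 700 of 2631 stretches (26.6%) occur in no other gene. Plac9a has 0.343% such stretches and Plac9b 3.45%. Their other stretches are shared among Plac9a, Plac9b and Gm9780. For Tmem181 the share found in 1 gene alone is 76.6% in Tmem181a, 59.5% in Tmem181b-ps and 39.4% in Tmem181c-ps. A read inside most of Tmem254 or Plac9 therefore carries no base that tells its copy, while many Tmem181 reads do.

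The stretches before the RefSeq gene starts were compared as well, as a description of the sequences. RefSeq (GRCm38.p6) gave a 250-base window before its own start of 6 of the 8 genes. The RefSeq start is not always that of the deposited gene: the Plac9a, Plac9b and Tmem254b windows reach 207, 129 and 16 bases into it, and that of Tmem254c begins 70 bases beyond it. Those of Tmem254a and Tmem254c are identical in 250 of 250 bases, and Tmem254a and Tmem254b share an unbroken 234 bases. Plac9a and Plac9b share an unbroken 172 bases. The Tmem254a window (chr14:25927673-25927922, minus strand) holds none of the 3 motifs searched on both strands, which were the GC box, the TATA box and the CCAAT box. That of Tmem254c holds none either. The Tmem254b window lies 16 bases further downstream and holds 1 GC box in those last bases, which the Tmem254a window does not reach. The absence thus holds only for the window as drawn. Plac9a has 4 GC boxes and Plac9b 3. The GC box was searched as GGGCGG and the CCAAT box by its name. For the TATA box the letters were TATAAA.
Tmem254a: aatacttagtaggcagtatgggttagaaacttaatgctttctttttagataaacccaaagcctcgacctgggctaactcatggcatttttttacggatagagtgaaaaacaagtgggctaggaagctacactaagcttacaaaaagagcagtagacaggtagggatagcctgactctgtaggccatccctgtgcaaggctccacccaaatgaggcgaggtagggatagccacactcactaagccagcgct

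The Tmem181a window (chr17:6256610-6256859, plus strand) holds 3 GC boxes, of which 2 overlap each other, and 2 CCAAT boxes, of which 1 overlaps a GC box. These are in capitals. A GC box occurs in 32.7%, a CCAAT box in 33.8% and a TATA box in 12.4% of 32817 such mouse windows.
Tmem181a: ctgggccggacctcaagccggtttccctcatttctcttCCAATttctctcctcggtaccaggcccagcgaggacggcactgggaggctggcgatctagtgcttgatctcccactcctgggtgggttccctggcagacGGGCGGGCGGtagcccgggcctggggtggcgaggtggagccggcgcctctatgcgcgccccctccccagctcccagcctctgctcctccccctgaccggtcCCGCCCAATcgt

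The tables give RPKM, reads scaled to the length of the gene and the total of the library. Whole reads were recovered from them, since a gene's RPKM values are whole multiples of what 1 read is worth. Library totals came to 25.6 to 55.6 M reads, median 44.6 M. Nrsn2 itself was not lower in the libraries labelled knockout (means 29.1 and 29.7 RPKM in WT controls and WT CSDS against 31.2 and 34.1 under the label), so every genotype direction below rests on the label. The 10 hippocampal marker genes were at 3.43 RPKM or higher in every library, and 14 meningeal, 9 choroid plexus and 5 red blood cell markers were also measured, none of them at 0 throughout a group. Control 10 of each genotype label had Xist, which marks female cells, at 56.5 and 48.2 RPKM against at most 1.60 in the other 21 libraries.

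The copies of one gene were counted with nearly the same reads. Tmem254a and Tmem254b held the same number of reads in 18 of 23 libraries and never differed by more than 2. Tmem254c had 0.966 to 0.980 reads for each Tmem254a read. Plac9a and Plac9b had equal reads in 5 of 23 libraries and differed by at most 4, and Gm9780 differed from Plac9a by at most 10. The values of these rows are thus near-repeats of one another and are not independent measurements. How the authors' counting treated reads that align to several places is not given in the sources used here, and which copy was transcribed cannot be told from these values.

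**Figure D1:**
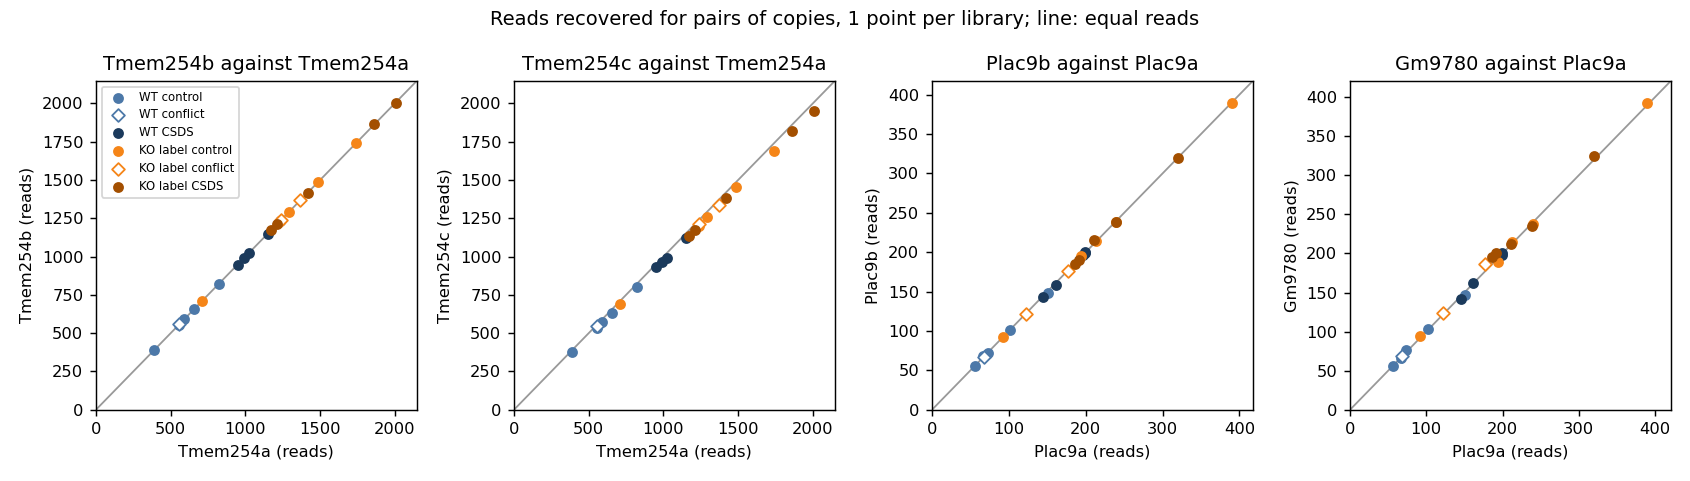
Reads recovered for pairs of copies in each of 23 libraries (1 point per library, both axes in reads, diamonds for the 3 libraries with conflicting labels). Points lie on or beside the line of equal reads: Tmem254a and Tmem254b differ by at most 2 reads, and Tmem254c runs slightly below the line with 0.966 to 0.980 of the Tmem254a reads.

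Tmem254 was lowest in WT controls and highest under the knockout label. Tmem254a stood at 7.30, 5.65, 6.01, 6.91 and 7.91 RPKM in WT controls 6 to 10. In WT libraries 1 to 5 after CSDS it stood at 14.0, 12.3, 11.7, 12.5 and 12.6 RPKM. Every WT CSDS library was above every WT control.

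Under the knockout label, controls 6 to 10 had 15.7, 14.9, 16.1, 16.4 and 17.8 RPKM of Tmem254a. Libraries 1 to 5 after CSDS had 15.4, 15.9, 17.5, 24.2 and 19.8 RPKM. These 2 groups overlap, and CSDS library 4 is the highest of the series. The order of group means was 6.76 ± 0.925 RPKM in WT control, 12.6 ± 0.870 in WT CSDS, 16.2 ± 1.08 in the controls of the knockout label and 18.6 ± 3.57 in its CSDS libraries (SD, n = 5). Of neighbours in this order only the last 2 groups overlap. The same order of groups is used for the 4 values given for other genes below.

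Tmem254b had a mean of 6.75 RPKM in WT control and the same means as Tmem254a, to 3 digits, in the other groups. Tmem254c followed with 7.77 ± 1.06, 14.5 ± 0.985, 18.6 ± 1.25 and 21.3 ± 4.13 RPKM in the same order of groups. The deposited values for Tmem254c use a shorter gene (1582 bases give whole reads, against 1869 for Tmem254a), and its reads were not more numerous. Counting error was 2.23 to 5.08% for Tmem254a, below the 6.67 to 19.2% spread between libraries of a group.

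Among controls the knockout label was higher than WT by 1.21 ± 0.10 (log2 difference ± SE, 95% interval 1.00 to 1.42) for Tmem254a. After CSDS the difference was 0.52 ± 0.10 (0.31 to 0.73). These differences were not tested because they chose the genes. After CSDS all 5 red blood cell markers were lower under the knockout label than in WT (summed 178 to 356 against 559 to 2807 RPKM), as were 2 of 14 meningeal markers (54.8 to 97.2 against 97.9 to 139.7 RPKM). Over all genes 2.24% passed between the labels after CSDS. Among controls no marker of these lists passed. Their part in the genotype differences of the 8 copies after CSDS was not tested.

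Plac9 followed the same order of groups at a lower level. Plac9a was at 1.60, 1.15, 1.12, 1.10 and 2.05 RPKM in WT controls 6 to 10 and at 3.98, 2.72, 2.86, 2.07 and 3.69 in WT CSDS 1 to 5. The groups do not overlap, but the lowest CSDS library and the highest control lie side by side. Those 2 values rest on 145 and 151 reads, from libraries of different depth.

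Knockout-labelled controls 6 to 10 had 3.18, 2.71, 3.43, 4.46 and 5.63 RPKM of Plac9a, and knockout-labelled CSDS libraries 1 to 5 had 3.45, 3.34, 3.89, 5.44 and 3.58. Both groups overlap each other and WT CSDS, and both lie above WT control. Means were 1.40 ± 0.415, 3.06 ± 0.770, 3.88 ± 1.17 and 3.94 ± 0.861 RPKM in the 4 groups (SD, n = 5). Plac9b gave 1.44 ± 0.411, 3.16 ± 0.819, 4.01 ± 1.20 and 4.07 ± 0.875.

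The genotype difference of Plac9a was 1.19 ± 0.18 on the log2 scale among controls (95% interval 0.80 to 1.58) and 0.33 ± 0.18 after CSDS (−0.06 to 0.71). Control 10 had the highest Plac9a among the controls of either label. Counting error reached 13.4% at 56 reads, and the spread between libraries was 21.9 to 30.1% of the mean.

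Tmem181 went the other way between the labels. Tmem181a was at 50.0, 44.8, 47.1, 51.2 and 55.9 RPKM in WT controls 6 to 10 and at 56.2, 58.5, 58.2, 60.5 and 57.9 in WT CSDS 1 to 5. Knockout-labelled controls 6 to 10 had 33.3, 32.3, 32.8, 33.9 and 32.4 RPKM, and knockout-labelled CSDS libraries 1 to 5 had 37.6, 38.4, 36.2, 38.9 and 37.8. No 2 of these 4 groups overlap, and from low to high the order was control and CSDS under the knockout label, then WT control and WT CSDS. The means were 49.8 ± 4.21, 58.3 ± 1.55, 32.9 ± 0.661 and 37.8 ± 1.03 RPKM in the 4 groups (SD, n = 5).

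The pseudogene Tmem181b-ps stood at 30.6 ± 4.08, 35.5 ± 0.931, 17.9 ± 0.684 and 20.2 ± 1.16 RPKM in the 4 groups (SD, n = 5). WT control (25.2 to 36.5) and WT CSDS (34.2 to 36.5) overlap, while all other pairs of groups are apart. All 8 copies had controls that do not overlap between the labels, where 4.96% of all genes do, and after CSDS 6 of 8 did not overlap against 5.45% of all genes. This is the contrast that chose the copies. Among controls the log2 difference was −0.59 ± 0.04 for Tmem181a and −0.75 ± 0.06 for Tmem181b-ps. After CSDS these differences were −0.62 ± 0.04 and −0.80 ± 0.06.

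Tmem181c-ps was uneven among WT controls. Controls 6 and 7 had 18.4 and 16.3 RPKM, and controls 8, 9 and 10 had 30.0, 26.4 and 35.5. WT CSDS libraries 1 to 5 had 18.1, 18.9, 21.8, 22.0 and 19.3 RPKM, inside the range of the WT controls.

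Under the knockout label Tmem181c-ps was at 12.3, 10.7, 12.3, 11.0 and 11.3 RPKM in controls 6 to 10 and at 12.4, 12.2, 13.2, 13.1 and 13.5 in CSDS libraries 1 to 5. Both groups lie below all WT libraries and overlap each other. The spread was 31.5% of the mean in WT control and 4.28 to 8.93% in the other groups, against a counting error of 1.96 to 5.26%. The genotype difference was −1.05 ± 0.14 among controls and −0.61 ± 0.14 after CSDS.

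**Figure D2:**
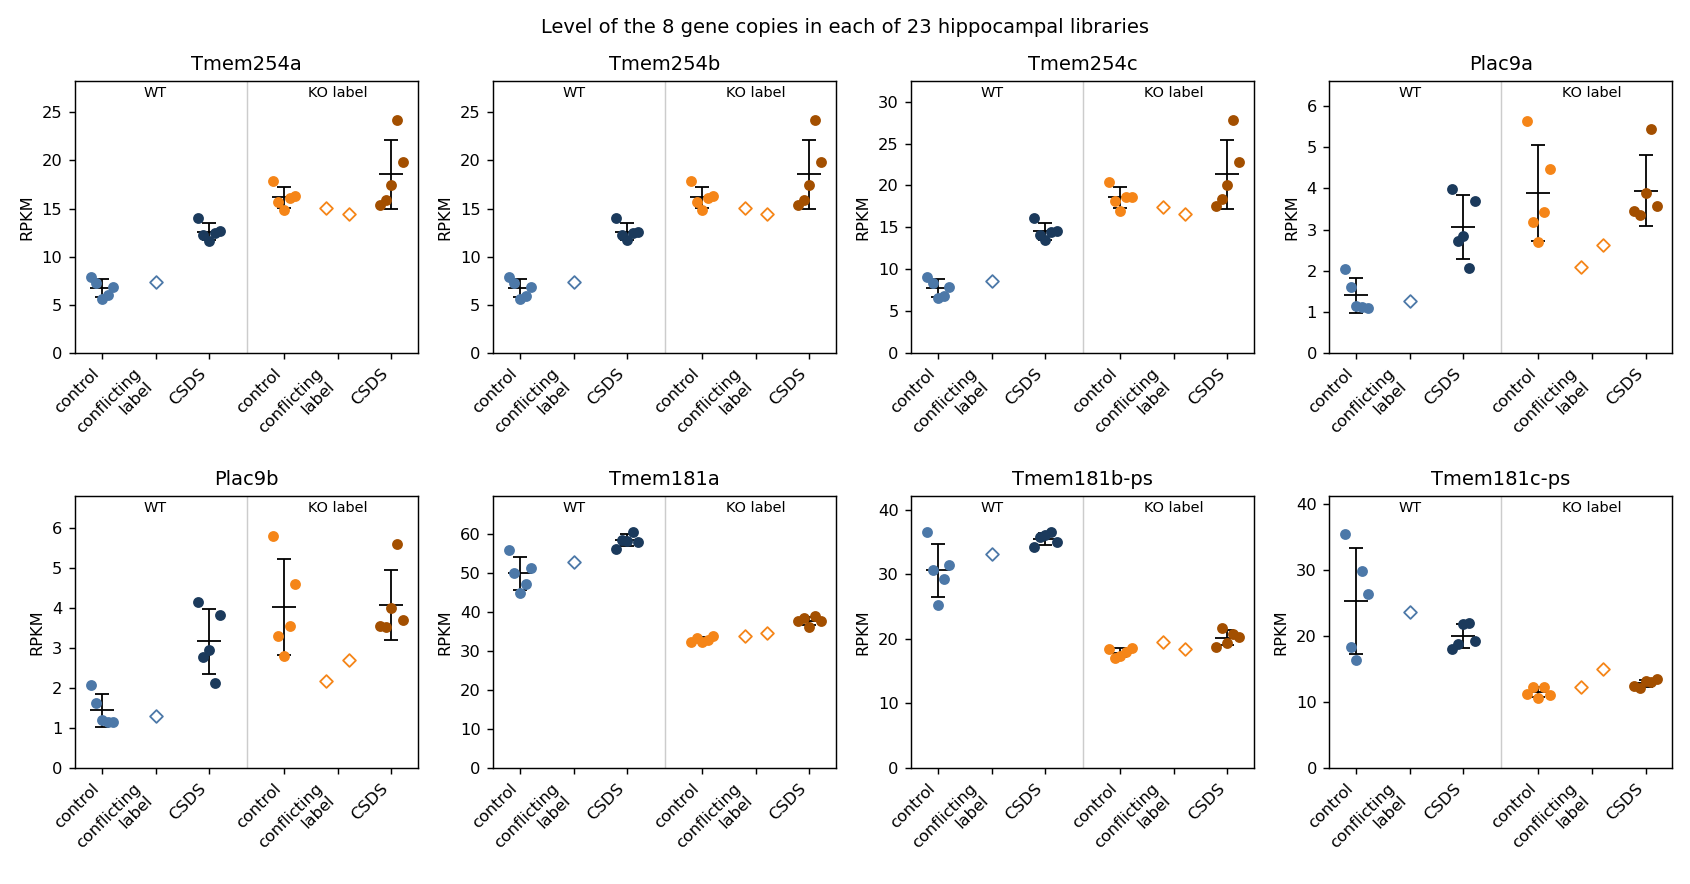
RPKM of the 8 gene copies by library (y axis from 0, filled circles for the groups with mean and SD, open diamonds for the 3 libraries with conflicting labels). All WT control libraries lie below all knockout-labelled libraries of both groups for the 5 copies on chromosome 14 and above them for the 3 Tmem181 copies.

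Reads of the pseudogenes were set against those of Tmem181a in the same library, which removes depth. Tmem181b-ps had 0.276 ± 0.0146 reads for each Tmem181a read in WT control and 0.275 ± 0.00321 in WT CSDS. Under the knockout label this ratio was 0.244 ± 0.00932 in controls and 0.241 ± 0.0107 after CSDS (SD, n = 5). The WT range of 0.253 to 0.294 and the range of 0.225 to 0.255 in the 10 knockout-labelled libraries overlap at 1 WT library, control 7.

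For Tmem181c-ps the ratio was 0.243 ± 0.0173 in WT CSDS, 0.247 ± 0.0155 in knockout-labelled control and 0.241 ± 0.0139 in knockout-labelled CSDS. WT controls gave 0.260, 0.257, 0.449, 0.365 and 0.448 in libraries 6 to 10, a mean of 0.356 ± 0.0952. Controls 8, 9 and 10 are above every library of the other 3 groups, which reach at most 0.265, while controls 6 and 7 lie within their range. Of the conflicting libraries, WT 9B had 0.317, knockout-labelled 11 had 0.307 and 10B had 0.259. Tmem181c-ps made up 21.6 ± 4.46% of the reads of the 3 copies in WT control and 16.0 to 16.6% on average elsewhere.

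**Figure D3:**
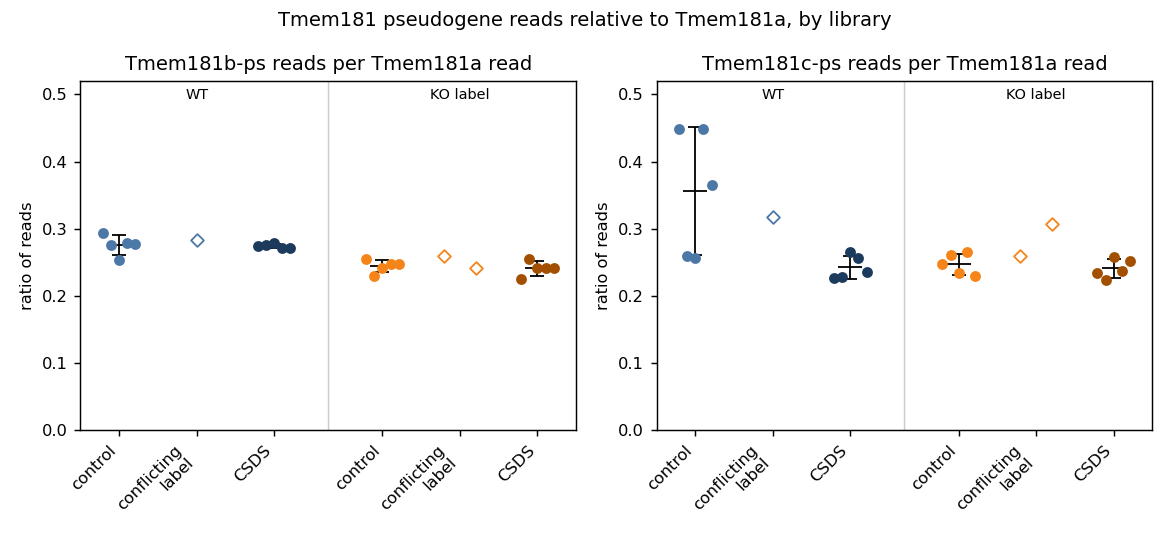
Reads of Tmem181b-ps (left) and Tmem181c-ps (right) per Tmem181a read in each library (y axis from 0, circles with mean and SD per group, diamonds for conflicting labels). Tmem181c-ps stands at 0.365 to 0.449 in WT controls 8, 9 and 10 and at 0.224 to 0.265 in all other libraries with agreeing labels.

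The 3 libraries with conflicting labels were set against the ranges of their own genotype. WT 9B lay within the range of the WT controls for 8 of 8 genes. It was below all WT CSDS libraries for 7 of them, for example at 7.45 RPKM of Tmem254a, and above them for Tmem181c-ps (23.7 RPKM). Knockout-labelled 11 was below both groups of its label for 5 genes, the chromosome 14 copies, with 14.4 RPKM of Tmem254a. Knockout-labelled 10B lay within the controls and below the CSDS libraries for 4 genes. For Tmem181b-ps (19.5 RPKM) and Tmem181c-ps (12.4 RPKM) it was above the controls and within the CSDS range of its label. Knockout-labelled 11 was above the controls but below CSDS for Tmem181a (34.5 RPKM). For Tmem181c-ps it was above both groups (15.0 RPKM). For Plac9a, knockout-labelled 11 and 10B had 2.63 and 2.10 RPKM, below all 10 other knockout-labelled libraries. WT 9B and WT control 9 had similar summed choroid plexus (1520 and 1536 RPKM), meningeal (58.7 and 59.2) and red blood cell markers (203 and 206). Knockout-labelled 11 and 10B were also alike in choroid plexus (71.3 and 74.6 RPKM) and meningeal markers (64.8 and 62.9). Whether such libraries share an animal or tissue was not tested.

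CSDS was then compared with control within WT, which the choice of genes did not use directly. The WT controls are nevertheless part of the genotype difference that chose the genes, so a low value in them enters both. The WT calls and p-values of the copies below are therefore a description, and no support is drawn from them. The test was limma on log2(RPKM + 0.5) across 18274 genes, where a difference understates the change of genes of low level. All 8 copies passed the filter of a mean of 0.5 RPKM, and the lowest single value was 1.10.

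In WT, 6 of 8 copies rose after CSDS and none fell, against 22.4% of all genes tested that passed, 9.88% of them upward. Their median log2 difference was 0.86 and that of all genes −0.0017. Tmem254a rose by 0.86 ± 0.08 (adjusted p = 0.000289, 95% interval 0.68 to 1.05), Tmem254b by 0.86 ± 0.08 and Tmem254c by 0.87 ± 0.08. Plac9a rose by 0.90 ± 0.17 (limma adjusted p = 0.00541, interval 0.52 to 1.28) and Plac9b by 0.91 ± 0.17. Since the copies of a gene share reads, these 5 rows stand for 2 genes.

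Tmem181a rose in WT by 0.23 ± 0.05 (limma adjusted p = 0.0114). Tmem181b-ps differed by 0.22 ± 0.08 (limma adjusted p = 0.0630) and Tmem181c-ps by −0.28 ± 0.19 (adjusted p = 0.312, 95% interval −0.69 to 0.14), and neither passed. Without WT control 10, Tmem181b-ps passed with 0.29 (limma adjusted p = 0.00871). WT CSDS and WT control did not overlap for 6 copies, all higher after CSDS, where 17.1% of all genes did not overlap and 7.47% were higher. An exact two-sided permutation of the library means gave p = 0.00794 for each of these 6, the smallest that 5 against 5 libraries allow. The chromosome 14 rows among them share reads, and this p-value does not allow for the choice of the genes.

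Other measures moved with this comparison. All 5 red blood cell markers were higher in WT CSDS, with a summed level of 559 to 2807 RPKM against 206 to 297 in WT control. Of 14 meningeal and perivascular fibroblast markers 1 was higher (summed 97.9 to 139.7 against 45.7 to 166 RPKM), and none of 9 choroid plexus markers passed (2902 to 3739 against 24.4 to 4908 RPKM). The hippocampal list had 1 of 10 genes lower. A list of 12 genes for copy number or substrain differences of C57BL/6 mice does not include the copies described here. It was chosen with earlier results of these data known. In each group 1 listed gene was at 0, so the 12 rows tested under these symbols may not be 1 for each listed gene. Some rows are copies of the same gene and are not independent. Of these rows 3 were higher and 3 lower in WT CSDS, where 22.4% of all genes passed. The summed level of the listed genes was 256 to 320 RPKM against 136 to 169 in WT control, with no overlap. The part of these lists in the levels of Tmem254, Plac9 and Tmem181 was not tested. Fewer cells of a type and less RNA per cell cannot be told apart in tissue RNA.

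With the 3 conflicting libraries counted as CSDS, the WT differences were 0.74 for both Tmem254a and Plac9a, and the Plac9 copies no longer passed (limma adjusted p = 0.0655 for Plac9a and 0.0663 for Plac9b). In the authors' deposited table for WT, the control mean includes WT 9B. The false discovery rate there was 6.51e-17 for Tmem254a, 5.13e-06 for Plac9a and 0.000501 for Tmem181a. It was 0.0358 for Tmem181b-ps and 0.0474 for Tmem181c-ps. The authors' deposited table gives a log2 change after CSDS of 0.87 for Tmem254a, 1.13 for Plac9a, 0.21 for Tmem181a and −0.33 for Tmem181c-ps.

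Under the knockout label, 3 of 8 copies rose after CSDS and none fell, against 15.0% of all 18259 genes that passed and 6.17% that passed upward. The 3 were the Tmem181 copies. They share part of their 75-base stretches, so they are not 3 independent calls. The controls of this label are also part of the difference that chose the genes, so no support is drawn from these calls. Tmem181a rose by 0.20 ± 0.03 (limma adjusted p = 0.00171), Tmem181b-ps by 0.17 ± 0.04 (adjusted p = 0.0224) and Tmem181c-ps by 0.16 ± 0.05 (adjusted p = 0.0439). The groups were apart for 2 copies, Tmem181a and Tmem181b-ps, where 12.9% of all genes were apart and 5.44% were apart upward.

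Tmem181c-ps lost its call when any 1 of 7 libraries was left out, namely knockout-labelled controls 7, 9 and 10 and CSDS libraries 1, 3, 4 and 5 (limma adjusted p up to 0.0996). Tmem181b-ps lost it without control 6 (limma adjusted p = 0.0524) or without CSDS library 4 (adjusted p = 0.0584). Tmem181a kept it without each library in turn (adjusted p at most 0.00678). With the conflicting libraries counted as CSDS none of the 8 copies passed under the knockout label, and Tmem181a had 0.15 (limma adjusted p = 0.0689).

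Tmem254a did not pass under the knockout label, with 0.17 ± 0.11 (limma adjusted p = 0.308, 95% interval −0.06 to 0.41). Plac9a did not pass either, with 0.04 ± 0.18 (limma adjusted p = 0.912, interval −0.35 to 0.43). In this comparison 8 of 14 meningeal markers fell (summed level 54.8 to 97.2 RPKM after CSDS against 84.2 to 158 in controls), and no red blood cell or choroid plexus marker passed. Of 12 rows of the copy number or substrain list, which was chosen with earlier results of these data known, 3 were higher and 1 lower. Over all genes 15.0% passed in this comparison, and 6.17% passed upward. The listed genes summed to 199 to 219 RPKM after CSDS against 157 to 202 in controls. Whether this bears on the copies was not tested. In the authors' deposited table, the Tmem254 copies and Tmem181a had a false discovery rate below 0.05 under the knockout label. The Tmem254 rows are near-repeats of one another. There Tmem254a had a log2 change of 0.25 with a false discovery rate of 0.0395 in the authors' deposited table, and its control mean includes libraries 11 and 10B.

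**Figure D4:**
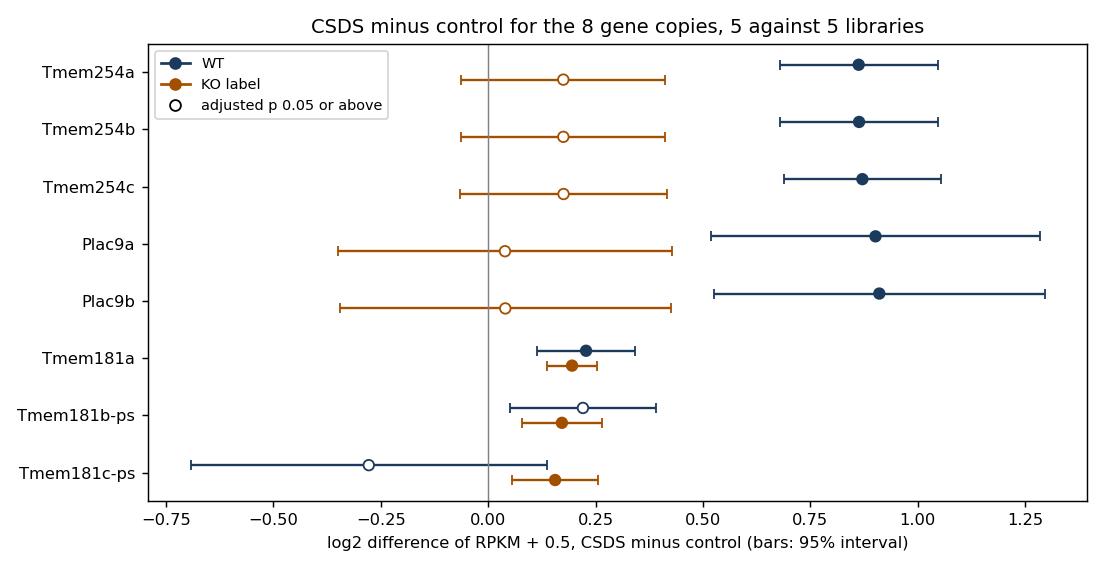
Log2 difference, CSDS minus control, of the 8 copies in WT and under the knockout label (points with 95% intervals, filled where the adjusted p is under 0.05, 5 against 5 libraries). The 5 chromosome 14 copies lie at 0.86 to 0.91 in WT and at 0.04 to 0.18 under the knockout label, while Tmem181a lies at 0.23 and 0.20.

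The difference between these CSDS effects was fitted over all 20 libraries with agreeing labels. It equals the genotype difference after CSDS minus that among controls, and the copies were chosen by the genotype difference, so their values are a description and no support is drawn from their p-values. On the log2 scale, knockout label minus WT, Tmem254a had −0.69 ± 0.14 (95% interval −0.99 to −0.39) and Plac9a −0.86 ± 0.26 (−1.41 to −0.31). Tmem181c-ps gave 0.43 ± 0.20.

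By limma none of the 8 copies passed, as 27 of 18263 genes (0.148%) did. The copies that passed numbered 3, the Tmem254 copies, without WT control 10 or without knockout-labelled CSDS library 4. Those 3 rows are near-repeats of one another. No support is drawn from these calls, since the genotype difference they rest on chose the copies. Over all alternatives the difference of Tmem254a lay between −0.79 and −0.63. Tmem181a and Tmem181b-ps differed by −0.03 ± 0.06 (95% interval −0.16 to 0.09) and −0.05 ± 0.09 (−0.24 to 0.14) between the labels.

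Genes near the copies were tested between the labels. The choice of genes did not use them, apart from reads that they may share with the copies. Gm9780 shares reads with Plac9. Dynlt1a overlaps Tmem181a and Gm26848 spans the position of Tmem181b-ps, so these may share reads as well. Of 64 genes within 500 kb of a copy, 36 passed the filter. Among controls 3 of these 36 passed (8.33%, 1 higher and 2 lower under the knockout label), against 3.95% of all genes. After CSDS 4 of 36 passed (11.1%, 1 higher and 3 lower), against 2.24% of all genes. Without Gm9780 the counts were 2 of 35 (5.71%, both lower) and 4 of 35 (11.4%). Every lower call was a copy of Dynlt1. These copies may share reads, so the shares can count 1 observation more than once. The count among controls was 1 without knockout-labelled control 7 or 8 and 5 without control 10. The count after CSDS was 2 without any one of WT CSDS libraries 2, 3 and 4 or knockout-labelled CSDS libraries 1, 3, 4 and 5.

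On chromosome 14 no neighbour above the filter other than Gm9780 passed among controls. The Duxbl copies described below were under the filter. Without a filter 5 neighbours on both chromosomes passed among controls, 4 higher and 1 lower under the knockout label, where 600 genes passed in all. Gm9780 was higher under the knockout label by 1.17 ± 0.18, which is a description with no test, since it shares 99.4% of its 75-base stretches with Plac9a and its reads are those that chose Plac9. Anxa11, which encodes a calcium-dependent phospholipid-binding protein and ends just before Plac9a, differed by 0.05 ± 0.08 among controls (limma adjusted p = 0.801). Gm2260 and Gm2274, named here after their values were seen, lie between the copies and differed by 0.06 each (adjusted p = 0.761 and 0.740). The median over the 14 neighbours tested on chromosome 14 was 0.05.

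Duxbl1, Duxbl2 and Duxbl3, copies of a double homeobox gene that also lie in the repeated stretch, were named after their values were seen. Duxbl1 was at 0.184 ± 0.0307, 0.465 ± 0.0585, 0.497 ± 0.0590 and 0.614 ± 0.0958 RPKM in the 4 groups (SD, n = 5). Duxbl2 and Duxbl3 had the same order of means. Among controls all 3 were higher under the knockout label with no overlap, at 2.7 to 2.95 times the WT mean. Of all genes above the filter, 4.96% had controls that did not overlap. All 3 were below the filter in the fits between the labels, and in the fit within the knockout label none of the 3 passed for CSDS against control (0.16 to 0.19 on the log2 scale, limma adjusted p from 0.136 to 0.202).

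On chromosome 17 the neighbours that passed were lower under the knockout label and belonged to Dynlt1, apart from Synj2. Dynlt1b differed by −0.39 ± 0.10 among controls (limma adjusted p = 0.0331) and −0.50 ± 0.10 after CSDS (adjusted p = 0.00832). Its means were 19.9 ± 3.20, 22.3 ± 2.95, 15.0 ± 1.81 and 15.5 ± 0.579 RPKM in the 4 groups (SD, n = 5). Dynlt1c differed by −0.36 ± 0.09 among controls (limma adjusted p = 0.0248) and −0.29 ± 0.09 after CSDS (adjusted p = 0.0883).

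Dynlt1a and Dynlt1f passed after CSDS, at −0.38 ± 0.10 (limma adjusted p = 0.0478) and −0.39 ± 0.10 (adjusted p = 0.0374), and had −0.31 and −0.33 among controls (adjusted p = 0.0787 and 0.0592). These copies are alike in sequence as well and may share reads. Dynlt1a also overlaps Tmem181a and may share its reads. Synj2, a phosphoinositide phosphatase gene, was higher under the knockout label than in WT after CSDS, by 0.21 ± 0.04 (limma adjusted p = 0.0162). It did not pass with the conflicting libraries as CSDS, with the replicate block or without WT CSDS library 1.

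Other flanking genes gave small values among controls: Tulp4 −0.01 ± 0.04, Serac1 0.01 ± 0.04, Gtf2h5 0.08 ± 0.04 and Ezr −0.08 ± 0.14 on the log2 scale, with limma adjusted p from 0.241 to 0.915. Sytl3 did not pass the filter. CSDS called 8 of 36 neighbours in WT (22.2%, and 7 of 35 without Gm9780) and 4 of 39 under the knockout label (10.3%), near or below the shares over all genes.

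**Figure D5:**
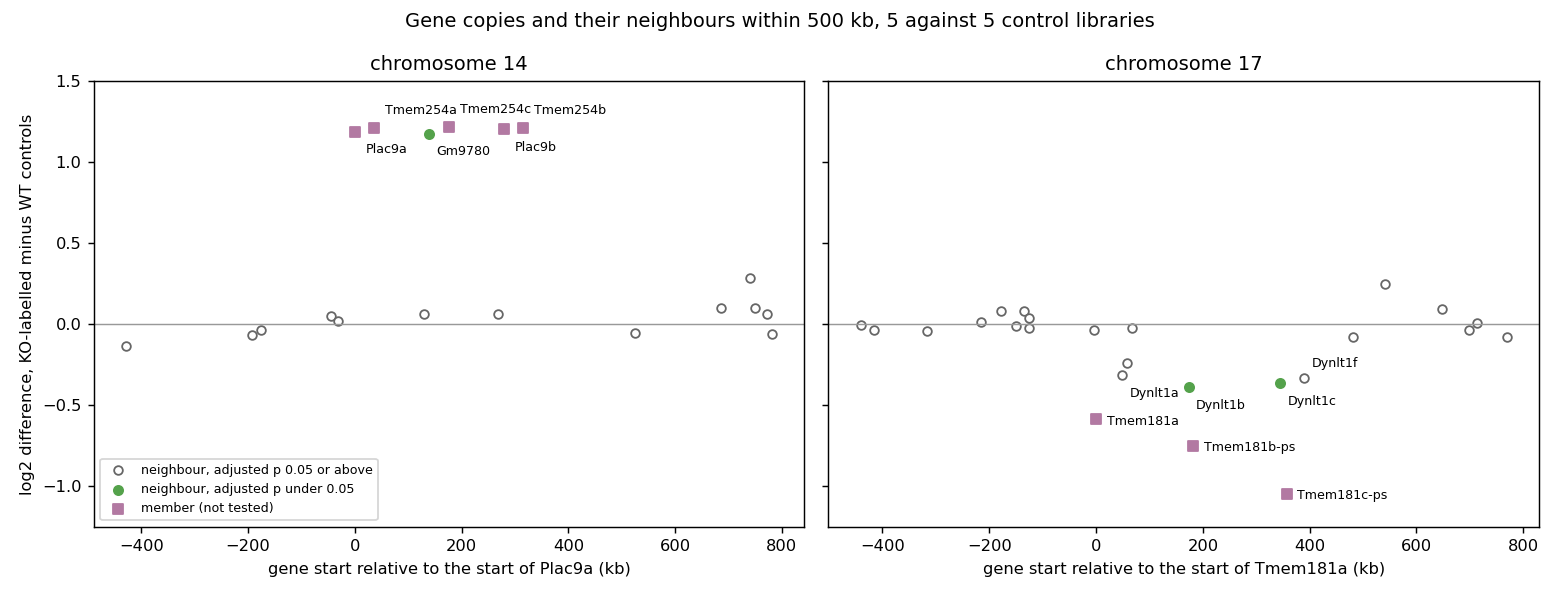
Log2 difference between knockout-labelled and WT controls (y axis) for the copies (squares, not tested) and the 36 neighbouring genes tested (circles, filled where the adjusted p is under 0.05), by distance of the gene start from Plac9a or Tmem181a in kb. The copies lie at 1.19 to 1.21 on chromosome 14 and at −0.59 to −1.05 on chromosome 17, and most neighbours lie near 0. The filled circle at 1.17 is Gm9780, which shares the reads of Plac9.

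The genes most like each family in their pattern over all 23 libraries were found among 15957 named genes of mean RPKM of at least 1, by the root mean square difference of standardised log2 values. Closest to Plac9b was Gm9780 at 0.056, followed by Gpc4, a glypican gene, at 0.547 and Ift81, a gene of transport in cilia, at 0.556. Closest to Tmem254c were Mcts2 at 0.432, Gm9780 at 0.435 and 2810025M15Rik at 0.444. For Tmem181a they were Tsr2 at 0.408, Arl8a, a lysosomal small GTPase gene, at 0.413 and Nnt, the mitochondrial transhydrogenase gene, at 0.445. Nnt stood at 4.18, 4.90, 2.93 and 2.79 RPKM on average in the 4 groups. These are descriptions with no test. Of 12 rows of the copy number or substrain list, 3 were higher and 2 lower under the knockout label among controls. The share over all genes was 3.95%. After CSDS 6 rows were higher and 5 lower, against 2.24% of all genes. The list was chosen with earlier results of these data known, so these counts are a description and no support is drawn from them.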

How the data were processed

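Hippocampal poly(A) RNA was sequenced as 75-base single-end reads with an unstranded kit, per the labels' protocols, and aligned with STAR to mm10, per the submitters' processing notes. For the counting tool, its handling of reads with several alignments and the annotation, nothing is given in the sources used here. The authors deposited RPKM per library and group means of RPKM. Per the file headers, the authors used edgeR and deposited log2 fold changes (control minus CSDS, with the sign turned here), a likelihood ratio score, a p-value and a false discovery rate. The deposited control means include the 3 libraries with conflicting labels (largest difference 5.7e-06).

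Library totals were recovered from 11609 single-exon genes, and each gene's length as the smallest that makes all 23 values whole within 0.001 read. Counting errors cover counting only. The main tests were limma-trend (limma 3.58.1, R 4.3.3) on log2(RPKM + 0.5), with genes kept from a mean of 0.5 RPKM over the libraries fitted, two-sided, Benjamini-Hochberg over all genes, threshold 0.05, on 5 against 5 libraries within a genotype label or on 20 libraries for differences between labels. The test was checked on simulated data. Genes, lists, neighbours within 500 kb and the naming rule (all 8 copies, the Dynlt1 copies and 6 flanking genes, the 6 neighbours of smallest p, and the 3 most alike genes per family) were chosen with earlier results of these data known. Alternatives were pseudocounts of 0.1 and 1, no filter, each library left out, control 10 of both labels left out, the conflicting libraries in either condition, a fit over 4 groups, a replicate block, windows of 200 kb and 1 Mb, exact permutation, and, chosen after seeing the data, median-ratio scaling. Sequences came from RefSeq and GENCODE. Protein sequences were not used here.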

Additional observations from a re-analysis of the deposited data

Results flagged for a closer look

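In knockout-labelled CSDS library 4, Plac9a was at 5.44 RPKM and Plac9b at 5.60 RPKM, far above the other 4 libraries of the group, whose gap to it exceeded the Dixon limit of 0.71 of the range. The same library had the highest Tmem254a of the series. Plac9a and Plac9b share nearly all their reads, so this is 1 observation. Of 32 groups examined 2 stood out in this way, and chance flags about 1 in 20 groups.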

How the results depend on the processing

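Of 512 member values under the alternatives for the 3 CSDS comparisons, 468 kept their direction and side of the threshold. Leaving out 1 library gave 6 to 7 of 8 copies called in WT (3077 to 4016 genes in all), 1 to 3 under the knockout label (1658 to 3668) and 0 to 3 for the difference of effects (16 to 244). For neighbours it gave 1 to 5 among controls (368 to 890 genes in all) and 2 to 5 after CSDS (245 to 586). Under the knockout label Plac9a ranged from −0.071 to 0.17 and Plac9b from −0.069 to 0.17, and in the difference of effects Tmem181a ranged from −0.075 to 0.0039 and Tmem181b-ps from −0.11 to 0.017. With the conflicting libraries as CSDS, 1240 genes passed in WT, 0 copies and 143 genes under the knockout label (Plac9a −0.14, Plac9b −0.14), 1 gene for the difference and 399 among controls. With them as control, 3 copies and 98 genes passed for the difference, and 8 neighbours and 1627 genes among controls. Without control 10 of both labels, 3 copies and 181 genes passed for the difference, 5 neighbours and 809 genes among controls, and 629 genes after CSDS. The fit over 4 groups called 1 copy and 3497 genes under the knockout label. Without a filter 5 neighbours passed among controls (4 higher and 1 lower, 600 genes in all) and 2 after CSDS (1 higher and 1 lower, 345 genes in all). The numbers did not pair the libraries by the rule that every pair's correlation be over 0.1 (10 pairs, −0.11 to 0.37, 3 over 0.1, all 3 among controls, 4 best with their own number). The replicate block called 5 neighbours among controls (544 genes in all). It moved no count other than that of the 5 neighbours by over 1.5 times. The causes were not tested. Depth limits Plac9 most, with 56 to 390 reads a library.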
